A study of Mus musculus with 12 samples.

Results

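The sirtuins are a family of 7 mammalian genes, Sirt1 to Sirt7, whose transcripts were measured in mouse liver by RNA sequencing. The members were taken as the rows of the count table whose Ensembl identifier maps to the symbols Sirt1 to Sirt7, and all 7 were present among 55357 genes and passed the filter on low counts that left 17358 genes. WT mice carried the floxed alleles without the transgene (PPARα fl/fl, AlbuminCre +/+). KO mice carried the same floxed alleles with AlbuminCre Tg/+, in which the albumin promoter drives Cre, so that the gene is deleted in hepatocytes and other liver cells keep it. The mice were males on a C57BL/6J background that received chow, a standard diet, or CDAHFD, a choline-deficient high-fat diet with defined L-amino acids, for 6 weeks from 7 weeks of age. There were 4 WT chow, 2 KO chow, 3 WT CDAHFD and 3 KO CDAHFD libraries, and the labels say no more than that these are separate samples, so p-values measure the spread between these samples.

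Sirtuins remove acetyl and other acyl groups from lysines and consume NAD+ in each reaction, which ties their activity to the NAD+ supply of the cell. SIRT1, SIRT6 and SIRT7 act mainly in the nucleus, SIRT2 in the cytosol, and SIRT3, SIRT4 and SIRT5 in mitochondria. In liver the family is known for acting on enzymes of fatty acid oxidation, ketogenesis, the urea cycle and gluconeogenesis and on the transcription factors that control them. PPARα is the nuclear receptor that drives fatty acid oxidation genes during fasting.

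Total counts per library ran from 29906785 to 43551003. Ppara, the targeted gene, was at 96.2 to 238 CPM (counts relative to library size, scaled with edgeR's TMM factors) in WT chow, 59.5 to 75.5 in WT CDAHFD, 14.4 and 38.7 in KO chow and 20.7 to 51.9 in KO CDAHFD, so that each KO library lay below each WT library. Under CDAHFD the genotype difference in Ppara was not called (log2 fold change -0.94, adjusted p = 0.547 in the quasi-likelihood test of edgeR, Benjamini-Hochberg adjusted over all genes tested, as throughout). Xist had at most 7 counts and Ddx3y at least 2298 in each library, as in males. The study's methods give equal group sizes, unlike the libraries, and KO chow replicate 2 carries the number 3 in its description. Whether a library stands under another group's label was not resolved here, and KO chow values rest on 2 libraries.

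Short stretches before annotated starts are shown for Sirt3 and Sirt7, which like Sirt4 were called lower in each comparison with WT chow, and for Sirt1 and Sirt5, which hold letters the others lack. Sirt4 had no match to show. The 250 bases before each start in the RefSeq table of promoters (GRCm38.p6) were searched on both strands for AGGTCA (the core PPAR motif), AAGGTCA (the core motif of estrogen-related receptors, which contains the former), CACGTG (the E-box bound by clock factors), GGGCGG (the GC box) and CCAAT. All 7 sirtuins had an entry and Sirt3 and Sirt6 had a second one. Capitals mark the match in each 30-base stretch, written 5′ to 3′ on the strand of the gene, here the minus strand for Sirt1, Sirt3 and Sirt7 and the plus strand for Sirt5.
Sirt3 CCAAT, chr7:140882041-140882070: tttggcttcccaaCCAATaagtcagagtcc
Sirt3 GC box, chr7:140881921-140881950: gaaggcgccggaGGGCGGcacttggccaga
Sirt3 GC box, chr7:140881899-140881928: tggccagaggggGGGCGGgagtaagagtgc
Sirt3 GC box, chr7:140881876-140881905: agagtgccgagaGGGCGGggcttggctcac
Sirt7 GC box, chr11:120625211-120625240: attgtccaggagGGGCGGcactgggcctgg
Sirt1 E-box, chr10:63339133-63339162: gcggcgcccggcCACGTGacccggcgtgtt
Sirt1 E-box, chr10:63339061-63339090: ggaggggcgggtCACGTGacggggtttaaa
Sirt5 PPAR core motif, chr13:43365327-43365356: gtaggtagttctTGACCTatttgggcagtg
Sirt5 PPAR core motif, chr13:43365359-43365388: atgagccttggaAGGTCAcaaagacacatg

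The 4 matches in Sirt3 lie before the start at position 140881869, and the window before its other start, at 140882309, holds none of these letters. The Sirt4 window holds none of them either. Matches not printed include GC boxes before Sirt1 (6 matches), Sirt2, Sirt5 and 1 start of Sirt6 (1 match each), and CCAAT before Sirt2 and Sirt5. The GC box is thus not particular to the sirtuins called lower. The PPAR core motif is in 14.0% of the 32851 windows in the table, the E-box in 6.02%, the GC box in 32.7%, CCAAT in 33.8% and that of estrogen-related receptors in 4.08%. Only the Sirt5 window holds the PPAR core motif among the sirtuins. It is also the only one with the core motif of estrogen-related receptors, formed by the second printed match and the base before it. None of the sirtuin windows holds a direct repeat of the PPAR core motif with 1 base between the copies, which 0.0335% of all windows hold. A match describes letters and not a bound site.

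In WT chow the mitochondrial Sirt3 had the highest level per length and Sirt6 the lowest. Levels between genes are given as CPM per kilobase of all annotated exons (GENCODE M21), as mean ± SD over the libraries. In WT chow they were 14.4 ± 3.49 for Sirt3, 13.4 ± 0.976 for Sirt2, 12.2 ± 1.57 for Sirt7, 5.92 ± 0.582 for Sirt4, 3.17 ± 0.511 for Sirt1, 2.47 ± 0.407 for Sirt5 and 1.79 ± 0.287 for Sirt6 (n = 4). The ranges of Sirt3, Sirt2 and Sirt7 overlapped each other, as did those of neighbours in the order from Sirt1 to Sirt6, whereas Sirt4 lay apart from both sets. With the length of the longest transcript in place of all exons Sirt2 led in WT chow, with 32.5% of the summed level of the family against 25.2% by exon length, so the order of the leading members depends on the length used.

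The sum over the family was 45.6, 55.3, 56.4 and 55.8 CPM per kilobase in the WT chow libraries. It was 38.3, 35.1 and 37.5 in WT CDAHFD, 33.9 and 34.7 in KO chow, and 38.1, 38.1 and 35.1 in KO CDAHFD. With TMM scaling each WT chow library thus lay above each library of the other groups. The sums with library size only were not computed, so it was not tested whether they separate in the same way. The composition moved too. Sirt3 made up 26.7% ± 4.52 of the sum in WT chow (SD, n = 4). Its share was 17.1% ± 2.02 in KO chow (n = 2), and under CDAHFD it was 19.5% ± 0.768 in WT and 17.8% ± 1.23 in KO mice (n = 3 each). Sirt2 was the leading member by this measure in the last 3 groups, at 30.7% to 32.6% of the sum.

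**Figure D1:**
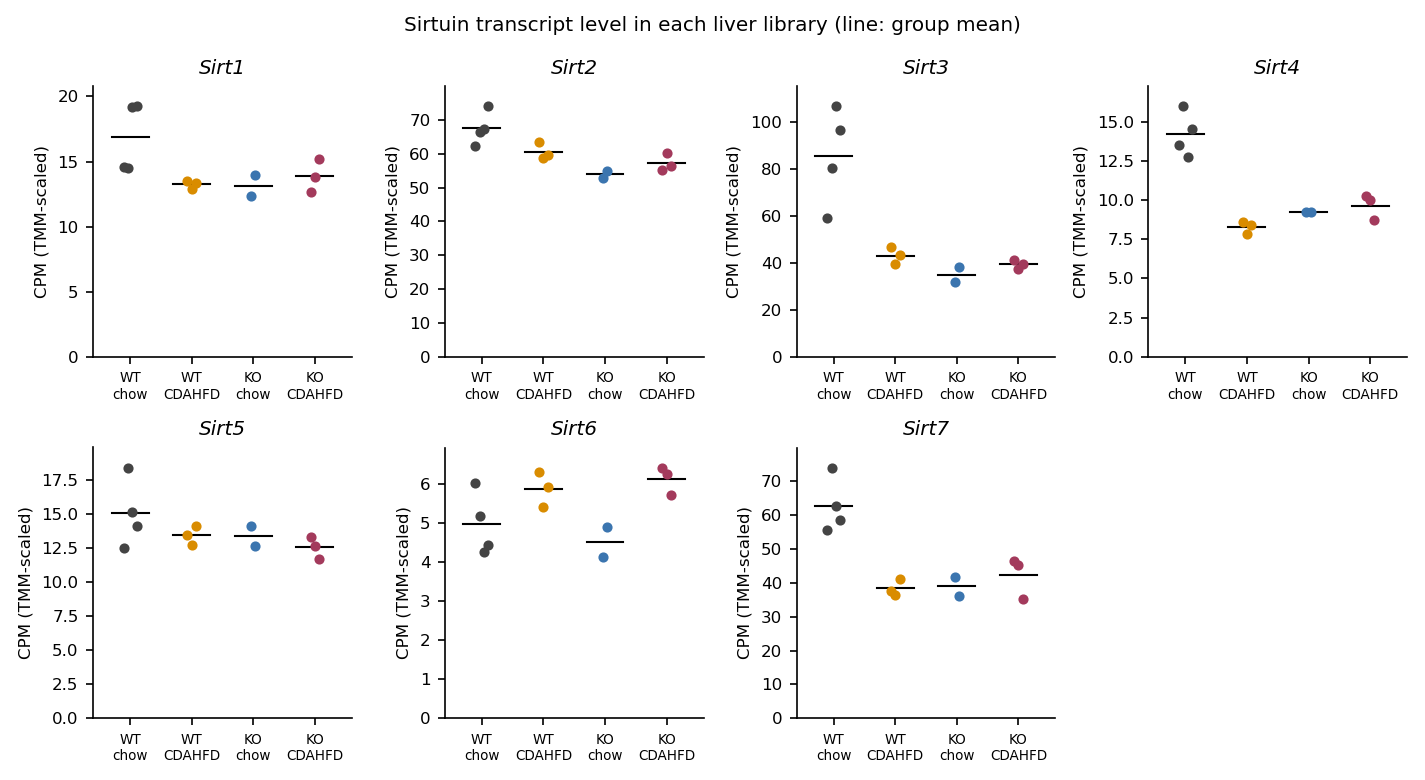
TMM-scaled CPM (y axis, from 0) of each sirtuin in each library, by group (x axis); points are libraries and lines are group means. WT chow libraries of Sirt3, Sirt4 and Sirt7 all lie above the libraries of the other groups, while the groups of Sirt5 overlap.

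Sirt3, which encodes the main deacetylase of mitochondrial proteins, was at 59.0, 80.6, 107 and 96.5 CPM in WT chow. It was at 46.6, 39.5 and 43.2 CPM in WT CDAHFD, 31.7 and 38.4 CPM in KO chow, and 41.4, 37.4 and 39.4 CPM in KO CDAHFD. With TMM scaling every library of the last 3 groups lay below the lowest WT chow library, and WT chow had the widest spread. With library size only, WT chow replicate 1 was at 48.74 CPM. WT CDAHFD replicate 1 at 52.2 and KO CDAHFD replicate 3 at 49.55 then lay above it, while KO chow stayed below at 32.87 and 39.35. The gene fell in KO chow to 40.9% of the WT chow level (log2 fold change -1.29, SE 0.20, adjusted p = 2.71e-04). It fell in WT CDAHFD by 0.99 on the log2 scale (SE 0.17, adjusted p = 3.68e-04). Its log2 fold change in KO CDAHFD was -1.12 (SE 0.17, adjusted p = 1.36e-04).

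Sirt4, a mitochondrial sirtuin known for restraining glutamate dehydrogenase, was at 13.5, 16.0, 12.8 and 14.5 CPM in WT chow. It was at 8.61, 7.81 and 8.44 CPM in WT CDAHFD, 9.22 and 9.22 CPM in KO chow, and 10.2, 9.97 and 8.71 CPM in KO CDAHFD. With TMM scaling all of these lay below WT chow, and the 3 groups lay close together. With library size only, KO CDAHFD replicate 1 was at 12.13 CPM, above WT chow replicate 3 at 9.947. The log2 fold change against WT chow was -0.62 for the KO chow libraries (SE 0.14, adjusted p = 0.00326). For WT CDAHFD it was -0.78 (SE 0.12, adjusted p = 1.59e-04), and KO CDAHFD gave -0.56 (SE 0.12, adjusted p = 0.00169).

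Sirt5, the mitochondrial desuccinylase that acts on the urea cycle enzyme CPS1, did not pass the test in any comparison. Its level ran from 12.5 to 18.4 CPM in WT chow, with a median of 14.6, from 12.8 to 14.1 in WT CDAHFD, from 12.7 to 14.1 in KO chow and from 11.7 to 13.3 in KO CDAHFD. These ranges overlapped. The log2 fold change in KO chow was -0.17 with a 95% interval from -0.49 to 0.16, in WT CDAHFD it was -0.16 (-0.45 to 0.12) and in KO CDAHFD -0.26 (-0.55 to 0.02), so a decrease of the size seen in Sirt3 lies outside these intervals.

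Sirt7, a nucleolar sirtuin known for its part in ribosomal RNA transcription, was at 55.7, 74.0, 62.7 and 58.4 CPM in WT chow. It was at 37.6, 36.3 and 41.1 CPM in WT CDAHFD, 41.8 and 36.2 CPM in KO chow, and 46.5, 45.2 and 35.1 CPM in KO CDAHFD. With TMM scaling no library of these groups reached the lowest WT chow library. With library size only, WT chow replicate 4 was at 42.6 CPM. WT CDAHFD replicate 3 at 46.97, KO chow replicate 1 at 43.3 and KO CDAHFD replicate 1 at 55.09 then lay above it. The log2 fold change against WT chow was -0.69 for the KO chow libraries (SE 0.15, adjusted p = 0.00295). For WT CDAHFD it was -0.71 (SE 0.13, adjusted p = 5.97e-04), and KO CDAHFD gave -0.57 (SE 0.13, adjusted p = 0.00254).

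Sirt1, the nuclear deacetylase of FOXO factors and of the coactivator PGC-1α, differed less. It was at 14.6, 14.5, 19.2 and 19.3 CPM in WT chow, at 13.5, 12.9 and 13.4 CPM in WT CDAHFD, at 12.4 and 13.9 CPM in KO chow and at 12.7, 13.8 and 15.2 CPM in KO CDAHFD. The WT chow libraries fell into a lower and a higher pair, and the lower pair was within 1 CPM of the highest library of KO chow and below the highest of KO CDAHFD. Sirt1 fell in WT CDAHFD by 0.35 on the log2 scale (SE 0.13, adjusted p = 0.0433), a call that was lost in 15 of 19 alternatives other than library size only, and its values in KO chow (-0.36, adjusted p = 0.0804) and KO CDAHFD (-0.28, adjusted p = 0.0957) were not called.

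Sirt6, a chromatin-bound deacetylase with a role in DNA repair and in the control of glucose metabolism genes, was the member with the fewest counts, 97 to 308 per library. Its level ran from 4.27 to 6.02 CPM in WT chow, with a median of 4.82, from 5.42 to 6.31 in WT CDAHFD, from 5.73 to 6.42 in KO CDAHFD, and was 4.13 and 4.90 in KO chow. The log2 fold change against WT chow was -0.14 in KO chow (adjusted p = 0.564). Under CDAHFD it was 0.24 for WT (adjusted p = 0.215) and 0.30 for KO mice (adjusted p = 0.121). It was the only sirtuin whose value was above WT chow in both CDAHFD groups with TMM scaling, and neither value passed the test.

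Sirt2, the cytosolic deacetylase of tubulin, was at 62.2, 66.3, 67.2 and 74.1 CPM in WT chow. It was at 63.4, 58.7 and 59.6 CPM in WT CDAHFD, 52.8 and 55.0 CPM in KO chow, and 55.3, 60.3 and 56.4 CPM in KO CDAHFD. With TMM scaling the KO groups lay below WT chow, and WT CDAHFD overlapped it. With library size only, KO chow was at 54.71 and 56.42 CPM, above the highest WT chow library at 54. Sirt2 fell in KO chow by 0.32 on the log2 scale (SE 0.10, adjusted p = 0.0233) and in KO CDAHFD by 0.23 (SE 0.09, adjusted p = 0.0412), and its value in WT CDAHFD was -0.15 (adjusted p = 0.164). The call was lost in 7 of these 19 alternatives in KO chow and in 15 of 19 in KO CDAHFD.

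By count, 4 of the 7 sirtuins were lower in KO chow than in WT chow (Sirt2, Sirt3, Sirt4 and Sirt7) and 0 were higher. Of all genes tested 39.0% were called in this comparison, 17.0% as lower. In WT CDAHFD 4 of 7 were lower (Sirt1, Sirt3, Sirt4 and Sirt7), where 51.1% of all genes were called and 25.0% were lower. In KO CDAHFD 4 of 7 were lower (Sirt2, Sirt3, Sirt4 and Sirt7), where 52.4% were called and 25.4% were lower. The median log2 fold change of the 7 members was -0.36, -0.35 and -0.28 in these comparisons, which share the WT chow libraries, against 0.0022, -0.05 and -0.04 over all genes tested.

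**Figure D2:**
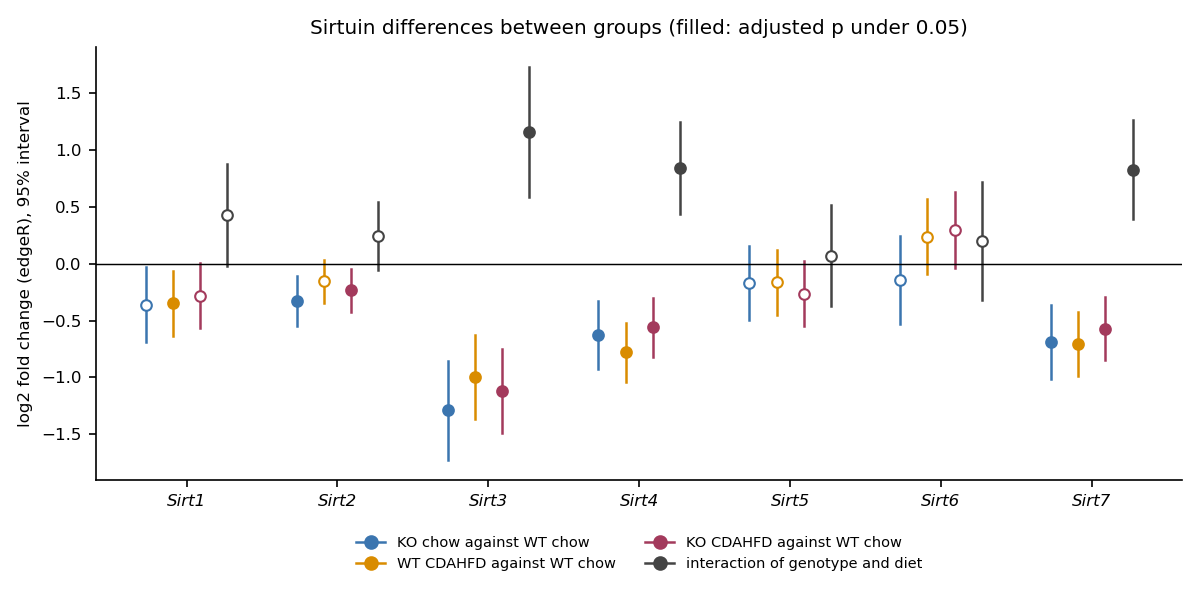
Log2 fold change from edgeR with its 95% interval (y axis) for each sirtuin (x axis) in the 3 comparisons with WT chow, and the interaction of genotype and diet; filled points have an adjusted p under 0.05. Sirt3 has the lowest values, from -1.29 to -0.99, and the intervals of Sirt5 and Sirt6 include 0 in each comparison shown.

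Between the groups other than WT chow no sirtuin passed the test. Between KO CDAHFD and KO chow 0 of 7 were called by edgeR and by DESeq2 (6.19% of all genes by edgeR), and 1, Sirt6, had an unadjusted p under 0.05. Its libraries did not overlap between these groups, with a log2 fold change of 0.44 (95% interval 0.04 to 0.84, adjusted p = 0.178 in edgeR). Between KO CDAHFD and WT CDAHFD 0 of 7 were called by either tool (0.357% of all genes) and between KO chow and WT CDAHFD also 0 of 7 (6.12%), with 0 at an unadjusted p under 0.05 in both. The libraries of Sirt2 also did not overlap between KO CDAHFD and KO chow, those of Sirt4 between KO CDAHFD and WT CDAHFD, and those of Sirt2, Sirt3, Sirt4 and Sirt6 between KO chow and WT CDAHFD, where KO chow has 2 libraries. The share of all genes whose libraries separate in this way was not computed, here or for the separations from WT chow above. With so few libraries unchanged genes can separate too, so no difference is read from these separations. For Sirt3 the genotype difference under CDAHFD was -0.13 with a 95% interval from -0.51 to 0.26, and the diet difference in KO mice was 0.17 (-0.27 to 0.60).

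The interaction, the diet effect in KO mice minus that in WT mice, was called for 3 of 7 sirtuins, all with a higher value in KO mice. Of all genes tested 23.1% were called, 8.63% in this direction. It was 1.16 on the log2 scale for Sirt3 (SE 0.26, adjusted p = 0.0068), 0.84 for Sirt4 (SE 0.19, adjusted p = 0.00585) and 0.83 for Sirt7 (SE 0.20, adjusted p = 0.0103). For Sirt7 the adjusted p was 0.0573 without KO chow replicate 2. With library size in place of TMM scaling the interaction was still called for Sirt3 (0.80, adjusted p = 0.0254) and not for Sirt4 (0.49, adjusted p = 0.0623) or Sirt7 (0.47, adjusted p = 0.0869). For Sirt1, Sirt2, Sirt5 and Sirt6 the interaction was not called, with values from 0.07 to 0.43.

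The scaling of the libraries bears on the calls of each sirtuin other than Sirt3, and on the size of the Sirt3 change. TMM factors lay between 0.729 and 0.827 for WT chow and between 1.03 and 1.04 for KO chow. Under CDAHFD they lay between 1.12 and 1.18 for WT and between 1.13 and 1.26 for KO mice. With library size only, the median over all genes tested moved to 0.40 for KO chow against WT chow, to 0.51 for WT CDAHFD and to 0.57 for KO CDAHFD. Sirt3 was still called lower then, at -0.88, -0.43 and -0.50. Sirt4 and Sirt7 lost the call in all of these comparisons and turned to 0.05 and 0.04 in KO CDAHFD, and Sirt2 turned to 0.08, 0.41 and 0.38, with the values in both CDAHFD groups called higher. Sirt5 and Sirt6 were then called higher in both CDAHFD groups (0.40 and 0.35 for Sirt5, 0.79 and 0.90 for Sirt6), and Sirt1 in KO CDAHFD (0.34). Of the genes called, 86.0%, 88.6% and 89.9% were then higher than in WT chow, so that this scaling moved the split for all genes as well.

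**Figure D3:**
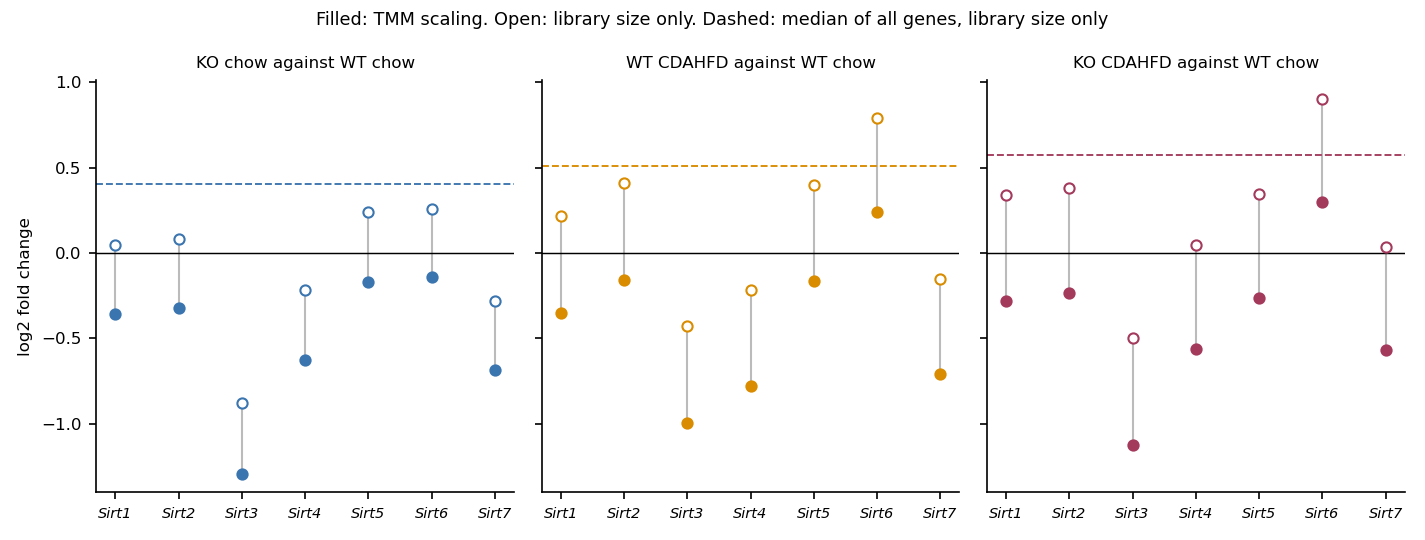
Log2 fold change against WT chow (y axis) of each sirtuin (x axis) with TMM scaling (filled) and with library size only (open), a panel for each comparison; dashed lines are the median of all genes with library size only. Sirt3 is below 0 under both, while Sirt2 changes sign in each panel.

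The levels of some sirtuins were ordered like those of clock genes within WT chow. A clock score, the mean log2 CPM of Arntl, Npas2 and Clock minus that of Dbp, Tef, Per3, Nr1d1, Nr1d2 and Ciart, was 3.90, 3.30, -3.36 and -3.35 in the WT chow libraries. It ran from 1.36 to 2.37 in WT CDAHFD, was 3.26 and -1.39 in KO chow and was 1.83, 1.66 and -3.76 in KO CDAHFD. In WT chow the libraries with the lower scores had the higher Sirt1, Sirt2 and Sirt3 levels and the lower Sirt6 levels, and in KO chow and KO CDAHFD the library with the lowest score had the highest Sirt1 level. Sirt4, Sirt5 and Sirt7 showed no such order in WT chow, and in KO CDAHFD the Sirt3 level at the lowest score (39.4 CPM) lay between those of the other libraries, as did that of Sirt2 (56.4 CPM). Sirt6 went the other way in KO chow, with 4.90 CPM at the lower score and 4.13 at the higher. In KO CDAHFD it was lowest at the lowest score (5.73 CPM). In the 8 libraries with a score above 0, KO chow was left with 1 library that was assumed to vary like the others. WT chow replicates 3 and 4 and KO CDAHFD replicate 3 were left out too. The scores of the WT chow libraries kept, 3.90 and 3.30, were still above those of WT CDAHFD, so these groups were not matched for the score. In this subset the log2 fold change of Sirt3 against WT chow was -1.14 for KO chow. It was -0.70 for WT CDAHFD and -0.83 for KO CDAHFD, and Sirt1 in WT CDAHFD then had a value of -0.13.

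**Figure D4:**
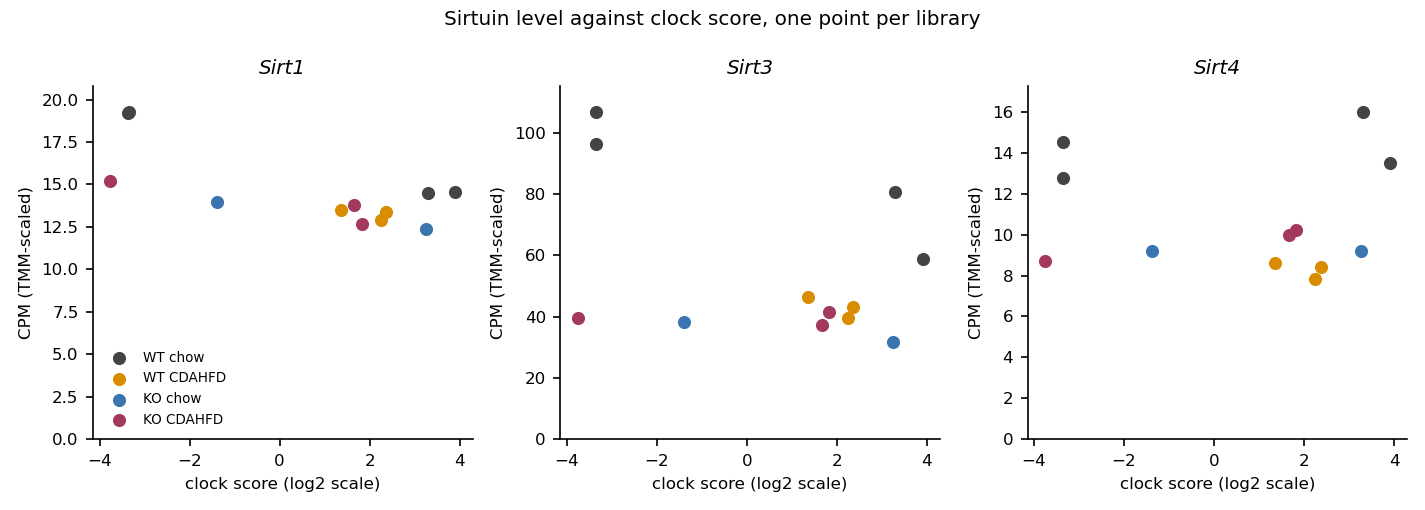
TMM-scaled CPM of Sirt1, Sirt3 and Sirt4 (y axes, from 0) against the clock score on the log2 scale (x axes), 1 point per library, coloured by group. The WT chow libraries with scores near -3.36 have the highest Sirt1 levels, 19.2 and 19.3 CPM.

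Cell type markers differed between the groups as well, and in bulk liver fewer cells of a type and less RNA per cell cannot be told apart. The summed CPM of 6 hepatocyte markers lay between 80830 and 100200 for WT chow and between 69840 and 80200 for KO chow. Under CDAHFD it lay between 42110 and 51840 for WT and between 39910 and 54490 for KO mice. Of these markers 4 were lower in KO chow than in WT chow and 6 in either CDAHFD group. Below, sets of 3 values stand for the comparisons with WT chow of KO chow, then WT CDAHFD, then KO CDAHFD. Of all genes tested 17.0%, 25.0% and 25.4% were called lower and 22.0%, 26.1% and 26.9% higher. Of 8 macrophage markers 7, 6 and 6 were higher, and their sum ran from 278 to 504 CPM in WT chow and from 887 to 1729 in the other groups. Of 8 stellate cell or fibroblast markers 5, 5 and 6 were higher, with sums of 188 to 314 CPM in WT chow and 1229 to 2283 in the others, and no marker of these lists was at 0 in all libraries of a group. The part of these shifts in the sirtuin values was not tested.

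Several sirtuins share bases or a start region with another gene, and reads from opposite strands cannot be told apart in these non-directional libraries. Sirt2 shares 42 exon bases with Nfkbib, which held 24.6% to 69.7% as many counts as Sirt2 and whose log2 fold changes against WT chow, 0.42, 0.29 and 0.27, were not called. Sirt3 (chr7:140863666-140882309) shares 342 exon bases with Psmd13 and 418 with Ric8a, which are 5.7% and 7.0% of its exon length. Psmd13, which held 71.2% to 272% as many counts as Sirt3, had log2 fold changes of -0.02, -0.33 and -0.26, with the last pair called lower (adjusted p = 0.0159 and 0.0413). Ric8a, with 27.9% to 114% as many, was not called (0.13, 0.0037 and 0.05). Sirt7 shares 124 bases with Mafg on the same strand, which held 113% to 331% as many counts and whose values were -0.12, 0.32 and 0.29, with the second called higher (adjusted p = 0.0396). The outermost GENCODE start of Sirt1, at position 63381704, lies 739 bases from that of Dnajc12, which was lower in all 3 groups (-0.72, -0.79 and -0.51). The Sirt1 stretches printed above lie before another start, at 63339035, and are not next to Dnajc12. By its outermost start Sirt6 lies 743 bases from the start of Ankrd24, whose values were -0.50, -0.46 and -0.15 with the second called.

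Genes of de novo NAD+ synthesis were mostly lower, and fewer of the salvage genes passed the test. For the counts that follow, the shares of all genes called lower were those given above for the sirtuins, and 22.0%, 26.1% and 26.9% were called higher. Of 8 measured genes of de novo synthesis from tryptophan, 6 were lower and 1 higher in KO chow, and 8 of 8 were lower in WT CDAHFD and in KO CDAHFD. Haao, which forms the precursor of quinolinate, had log2 fold changes of -1.60 and -1.97 in KO chow and WT CDAHFD (adjusted p = 2.47e-05 and 6.86e-07), Ido2, a tryptophan dioxygenase, had -1.94 and -1.96 and Afmid, the kynurenine formamidase, -1.43 and -2.50. The list also holds Acmsd, which diverts the pathway away from NAD+ and was picked out after its values were seen. It was the gene that was higher in KO chow (1.04, adjusted p = 0.00626), and it fell in both CDAHFD groups (-0.75 and -0.89), so that 6, 7 and 7 of the other 7 genes were lower. Of 11 salvage and shared genes, 3, 5 and 5 were lower and 1, 0 and 0 higher, and 7, 6 and 6 were not called. Nampt, which makes nicotinamide mononucleotide, was at 0.52, 0.47 and 0.30 with adjusted p of 0.0674, 0.0501 and 0.204, and Naprt, the nicotinic acid enzyme, fell by 0.58 in KO chow and by 0.99 in WT CDAHFD on the log2 scale.

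Enzymes that use NAD+ or remove nicotinamide gave a mixed picture. Of 14 other NAD+ consumers, 2, 7 and 4 were higher and 0, 2 and 2 lower, where the count in KO chow is below the share of all genes and that in KO CDAHFD near it. Parp2, a DNA repair enzyme, was higher by 0.73 and 0.56 on the log2 scale in KO chow and WT CDAHFD, and Cd38, an NAD+ glycohydrolase, by 0.65 in KO chow. Of 3 genes that remove nicotinamide or its products, 1, 2 and 2 were lower. Nnmt, which methylates nicotinamide, was at 0.41 in KO chow (adjusted p = 0.0626, not called) and fell by 1.62 and 0.84 in WT CDAHFD and KO CDAHFD. Aox3, an aldehyde oxidase, fell by 2.35, 1.77 and 2.46. Ccar2, the SIRT1 inhibitor, had values of -0.04, -0.03 and -0.02 and was not called. It belongs to a list of 5 regulators of Sirt1, of which 2, 1 and 2 were higher and 0 lower. Of all genes tested 22.0%, 26.1% and 26.9% were higher.

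Known protein substrates of the mitochondrial sirtuins were mostly lower in transcript level, with 13, 15 and 16 of 19 lower and 3, 2 and 2 higher. Cps1, a SIRT5 substrate that is also one of the hepatocyte markers above, fell by 0.82, 1.58 and 1.65 on the log2 scale. Glud1, glutamate dehydrogenase, fell by 0.42, 0.80 and 0.97, while Idh2, a SIRT3 substrate, was higher by 0.77, 0.91 and 1.06. Of 13 enzymes of the TCA cycle 6, 8 and 10 were lower and 1, 1 and 0 higher, against 17.0%, 25.0% and 25.4% of all genes lower. Of 18 substrates of the nuclear sirtuins 5, 7 and 6 were lower and 1, 2 and 2 higher, against the same shares of all genes, with Nr1h4, the bile acid receptor FXR, at -1.10 and -1.30 in KO chow and WT CDAHFD, and Ppargc1a at -0.28, 0.20 and -0.11, not called. Substrates of the cytosolic SIRT2 went the other way for the most part. Of 5 listed, 3, 3 and 3 were higher and 0, 2 and 2 lower, against 22.0%, 26.1% and 26.9% of all genes higher. Their median log2 fold change was 1.245, 1.005 and 1.139. Of 11 zinc-dependent deacetylases, which remove acetyl groups without NAD+, 2, 1 and 1 were lower and 2, 2 and 1 higher, and their median log2 fold change was -0.06, -0.13 and 0.0018 against -0.36, -0.35 and -0.28 for the sirtuins. The difference between these families was not tested.

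**Figure D5:**
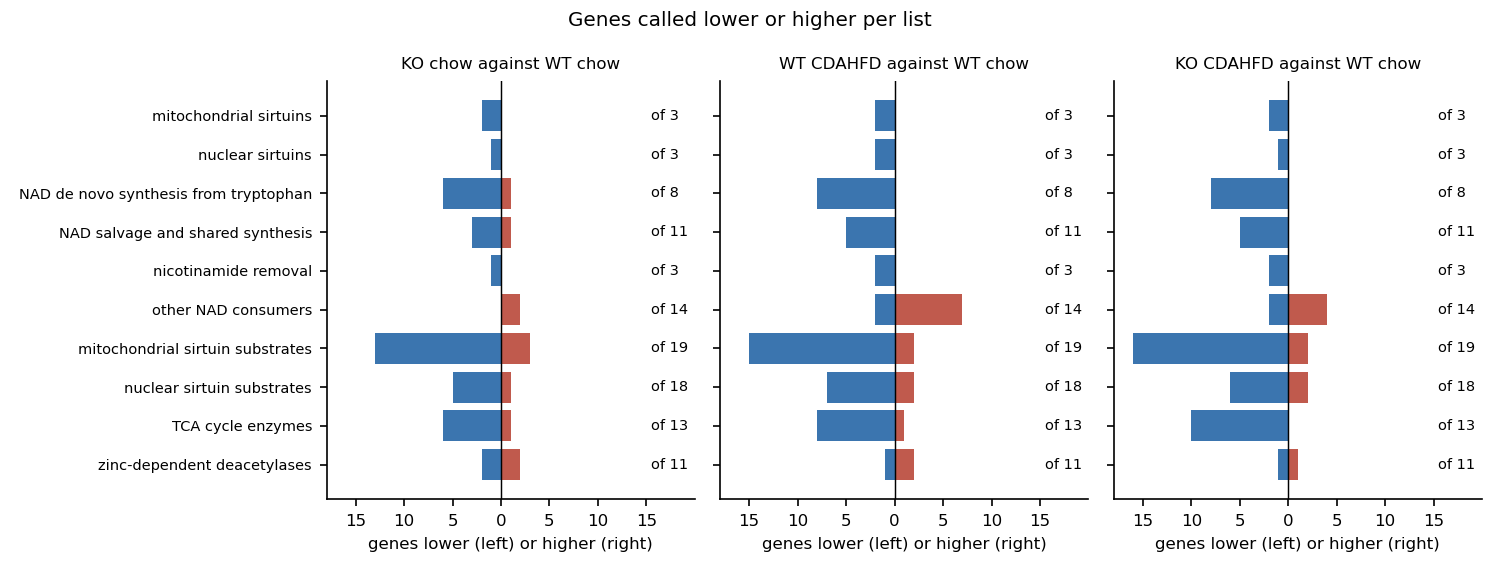
Number of genes called lower (bars to the left) or higher (bars to the right) at an adjusted p under 0.05 in each list shown, for the 3 comparisons with WT chow. The number at the right of a row is how many genes of the list were tested. The SIRT2 substrates and the regulators of Sirt1 are not shown. The de novo NAD+ list has 6, 8 and 8 of 8 genes lower, and the zinc-dependent deacetylases have 2, 1 and 1 of 11 lower.

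Likeness between members was described by Pearson's r of log2 CPM over the 12 libraries, which share the group differences. Sirt4 and Sirt7 were the most alike (r = 0.95), followed by Sirt2 and Sirt3 (0.89) and Sirt1 and Sirt3 (0.86), and Sirt6 had negative values with each of the others. Among 12884 genes with a mean count of at least 50, those most like Sirt3 were Pbld1, Eif4ebp2 and Scap (r = 0.99, 0.99 and 0.98), those most like Sirt4 were F7, Nit2 and Slc29a1 (0.98, 0.98 and 0.97), and those most like Sirt7 were Ppdpf, Rgl3 and Ebpl (each 0.98). For Sirt1 they were Zfp597, Nr3c2 and Pex26 (0.97, 0.96 and 0.95), and for Sirt2 Rnf169, mt-Tn and Slc2a8 (each 0.95). Sirt5 had 2 genes and Sirt6 had 3 with r above 0.9, against 585 for Sirt3, 572 for Sirt4 and 419 for Sirt7.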

How the data were processed

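Liver poly-A RNA of 12 samples was sequenced in non-directional libraries. Per the labels and methods, reads were checked with FastQC 0.11.5 and aligned to GRCm38 with STAR 2.7.3a, and the authors deposited raw read counts per Ensembl gene. The counting program and annotation release are not given in the sources used here. Groups came from the sample labels. Symbols, exon lengths and overlaps were taken from GENCODE M21, which holds 94.08% of the identifiers. Genes were filtered with filterByExpr, scaled with TMM and tested in edgeR 4.0.16 (R 4.3.3) by a quasi-likelihood fit with 4 group means over 12 libraries, with Benjamini-Hochberg adjustment and calls at an adjusted p under 0.05. The fit was tested on simulated data, with criteria that were revised after a first limit on recovery was missed. Standard errors are the log2 fold change divided by the square root of F. DESeq2 1.42.0, other scalings, no filter, left-out libraries, a replicate block and the clock score were alternatives. Named genes were the sirtuins, overlapping and neighbouring genes, 3 similar genes per member, a few fixed genes, and up to 3 genes per list with the largest called changes, of which a part is printed. Members and lists were chosen with earlier results of these data known. A gene that the rule for named genes selects is not reported here.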

Additional observations from a re-analysis of the deposited data

Results flagged for a closer look

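The diet effect differed between genotypes by a test of the difference itself for 3 sirtuins. The effect in KO mice minus that in WT mice was 1.16 on the log2 scale for Sirt3, 0.84 for Sirt4 and 0.83 for Sirt7, with adjusted p of 0.0068, 0.00585 and 0.0103 in edgeR. Sirt3 fell under CDAHFD in WT mice by 0.99 and was at 0.17 in KO mice, where KO chow has 2 libraries. No sirtuin had a WT chow library far enough from the other 3 to be named here.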

How the results depend on the processing

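Sirt3, Sirt4 and Sirt7 kept their direction and call against WT chow in each of 19 alternatives other than library size alone, with log2 fold changes for Sirt3 from -1.43 to -1.14 in KO chow and from -1.11 to -0.70 in WT CDAHFD. With library size alone, sirtuins called numbered 1 in KO chow against WT chow and 1 in the interaction, and signs turned against WT chow for Sirt1 (0.050 in KO chow, 0.22 in WT CDAHFD, 0.34 in KO CDAHFD), Sirt2 (0.084, 0.41 and 0.38), Sirt5 (0.24, 0.40 and 0.35), Sirt6 in KO chow (0.26), and Sirt4 and Sirt7 in KO CDAHFD (0.049 and 0.036). They also turned for Sirt5 in KO CDAHFD against KO chow (0.11) and, in the interaction, for Sirt2 (-0.11), Sirt5 (-0.29) and Sirt6 (-0.14). This setting leaves out the TMM factors by construction.

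Genes called between KO CDAHFD and KO chow numbered 1886 with DESeq2, 581 with only these groups, 640 with a replicate block, 1735 with the clock score as covariate and 600 in the libraries with a clock score above 0, a choice made after seeing the data. Between KO CDAHFD and WT CDAHFD they were 244 with DESeq2, 215 without the filter, 154 with only these groups, 175 with the clock score and 113 in the libraries with scores above 0. Between KO chow and WT CDAHFD they were 2061, 1985, 2559 and 2680 with DESeq2, only these groups, the clock score and scores above 0. The cause was not tested. For Sirt1 in KO CDAHFD against WT CDAHFD the value turned to -0.038 with the clock score and -0.0020 with scores above 0.

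Leaving out 1 library at a time gave 4320 to 7128 genes in KO chow against WT chow, 233 to 1437 in KO CDAHFD against KO chow, 26 to 75 in KO CDAHFD against WT CDAHFD and 260 to 1469 in KO chow against WT CDAHFD, the lowest count being without KO chow replicate 1 in the first, second and last of these. Values near 0 changed sign for Sirt5 in KO CDAHFD against KO chow (-0.17 to 0.0025), Sirt1 in KO CDAHFD against WT CDAHFD (-0.00025 to 0.13) and Sirt5 in the interaction (-0.048 to 0.15). Libraries with the same replicate number did not deviate together (r from -0.24 to 0.27 over 15 pairs), and with the replicate block Sirt2 in KO chow was at -0.28 (adjusted p = 0.109), Sirt2 in KO CDAHFD at -0.19 (adjusted p = 0.165) and Sirt1 in WT CDAHFD at -0.27 (adjusted p = 0.118), all no longer called. Shares by the longest transcript moved by more than the SD between libraries in 23 of 28 cases. KO chow has 2 libraries, and Sirt6 has few counts.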
